A study of Homo sapiens with 14 samples.

Results

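The genes described here govern how a cell takes up, senses, moves and exports cholesterol. They are INSIG1, SREBF2 and STARD4 on the side of the transcription factor SREBP2, NPC1 and NPC2, which release cholesterol from lysosomes, and MYLIP, ABCA1 and ABCG1 on the side of the nuclear receptor LXR. All probes whose platform annotation carried one of these 8 symbols were taken, which gave 12 of the 47323 distinct probes on the array. INSIG1 had 2 probes, ABCG1 had 4 and each other gene had 1. Symbols were held for probes of the authors' processed table alone, so any further probe of these genes among the other 24411 probes was not analysed here. Of these 12 probes, 11 were among the 24894 probes detected (detection p-value under 0.05) on at least 2 of the 14 arrays, and the counts below are over these 11.

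Total RNA of LNCaP, an androgen-responsive human prostate cancer line, and of LNCaP-abl, a subline derived from it by long culture without androgen, was hybridised to 14 Illumina BeadChip arrays. The question was what dilazep, a vasodilator that inhibits adenosine uptake and that the study used to target GATA2, does to expression in these lines. In each line, cells given 50 µM dilazep for 48 h were measured on 3 arrays, cells given water (H2O) on 2 and cells given DMSO on 2. LNCaP cells grew in 10% fetal bovine serum and LNCaP-abl cells in 10% charcoal-stripped serum without phenol red, and charcoal stripping removes steroids and other lipophilic molecules from serum. Line and serum therefore cannot be told apart. No label says which vehicle, H2O or DMSO, belonged to dilazep. The treatment text of the H2O and DMSO arrays names bufalin instead of dilazep, so a difference between experiments cannot be told apart from a response to dilazep. No label says that replicates came from separate cultures, so the spread behind each p-value is that between these arrays and may be technical.

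Arrays detected between 17925 and 19856 probes. In LNCaP every dilazep array detected fewer (18482 to 18912) than every control array (19100 to 19856), while in LNCaP-abl the ranges overlapped (17925 to 18807 against 18495 to 19196), and the part of this in the results below was not tested. The luminal prostate markers KLK2, FOLH1, HOXB13, TMPRSS2, KRT8 and KRT18 were detected on every array, and KLK3 on 7 LNCaP and 4 LNCaP-abl arrays. The endothelial marker PECAM1 was detected on no array and the monocyte marker CD14 on 1, while VIM was detected on all 14 and COL1A1 and VWF on 7 LNCaP and 4 or 5 LNCaP-abl arrays. In such bulk RNA, fewer expressing cells and less RNA per cell cannot be told apart.

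SREBP2, encoded by SREBF2, is made as an inactive precursor in the membrane of the endoplasmic reticulum, where SCAP escorts it. When sterols are plentiful, INSIG proteins hold SCAP and its cargo in the endoplasmic reticulum. When sterols are scarce, the complex moves to the Golgi, where proteases free the active factor, which binds sterol regulatory elements in genes for cholesterol synthesis and uptake. LXR works in the opposite situation: oxidised sterols that build up with cholesterol activate it as a partner of RXR on DR4 elements. Its targets include the exporters ABCA1 and ABCG1, and MYLIP, a ubiquitin ligase that sends the LDL receptor to degradation. Prostate cancer cells are known for a high demand for cholesterol, which they meet by synthesis and by lipoprotein uptake.

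Stretches of 4 promoters are shown because they hold matches to letters that were searched for. These were the core of a sterol regulatory element, a DR4 element, the E-box CACGTG and the CCAAT box. Only the sterol regulatory element and DR4 were named above as sites of SREBP2 and LXR. The genes of these promoters are among those whose levels are set against each other below. The stretches come from RefSeq windows on GRCh38.p14, which run from 250 bases before to 50 after each gene's start and covered 7 of the 8 genes. Capitals mark a match, found on either strand. In SREBF2 (chr22:41832935-41833015, plus strand) they mark the core of a sterol regulatory element, TCACNCCAC, 133 to 125 bases before the start, and a CCAAT box read as ATTGG, 106 to 102 bases before it. In INSIG1 (chr7:155297688-155297848, plus strand) they mark a CCAAT box read as ATTGG and the E-box CACGTG. In STARD4 (chr5:111512645-111512715, minus strand) they mark 2 CCAAT boxes. In ABCA1 (chr9:104928195-104928315, minus strand) they mark an E-box and, on the reverse strand, a relaxed DR4 element, AGGTNA and NGGTCA spaced by 4 bases, 69 to 54 bases before the start.
SREBF2: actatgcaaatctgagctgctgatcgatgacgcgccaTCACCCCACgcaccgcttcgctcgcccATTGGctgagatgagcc
INSIG1: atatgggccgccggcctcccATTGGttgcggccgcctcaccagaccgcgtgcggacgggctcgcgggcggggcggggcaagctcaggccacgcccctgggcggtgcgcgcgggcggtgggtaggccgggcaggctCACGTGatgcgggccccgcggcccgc
STARD4: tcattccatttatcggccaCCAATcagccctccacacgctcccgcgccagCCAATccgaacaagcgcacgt
ABCA1: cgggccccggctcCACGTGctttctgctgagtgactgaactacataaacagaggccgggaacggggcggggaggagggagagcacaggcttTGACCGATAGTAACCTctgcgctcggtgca

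The core TCACNCCAC of the sterol regulatory element was found in 1.13% of 35116 such windows, and among the 7 genes in SREBF2 alone. The E-box CACGTG was in 7.26% of windows and in those of INSIG1 and ABCA1. The CCAAT box was in 34.6% of windows, among them those of SREBF2, INSIG1, STARD4, NPC2 and MYLIP. The strict DR4 element, AGGTCA repeated after 4 bases, was in 0.0199% of windows and in none of the 7, and the relaxed form, whose letters were chosen with the ABCA1 sequence in view, was in 0.094%. A match is only a match of letters, and its absence says nothing beyond these windows.

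With dilazep, all tested probes of the SREBP2 side and of the lysosomal pair were called higher in LNCaP, and 3 of 5 on the LXR side were called lower. For SREBF2 the dilazep and control arrays overlapped, and its call was lost under several alternatives. ABCA1 was detected on no LNCaP dilazep array and on only some LNCaP controls. Of the 11 member probes tested, 6 were higher (both INSIG1 probes, SREBF2, STARD4, NPC1 and NPC2) and 3 were lower (MYLIP, ABCA1 and 1 probe of ABCG1), where 32.0% of all kept probes were called, 15.7% higher and 16.3% lower. In LNCaP-abl 5 were higher (both INSIG1 probes, STARD4, NPC1 and NPC2) and ABCA1 alone was lower, where 35.9% of all kept probes were called, 18.6% higher and 17.3% lower. All calls are at an adjusted p under 0.05 in a limma fit over all kept probes. The arrays with dilazep did not overlap the 4 control arrays for 8 of the 11 probes in each line, which held for 38.0% of all kept probes in LNCaP and 41.4% in LNCaP-abl. With median centring in place of quantile normalization, 35.5% of all calls in LNCaP-abl were higher instead of 51.9%, and the 6 calls among the members there were kept.

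**Figure D1:**
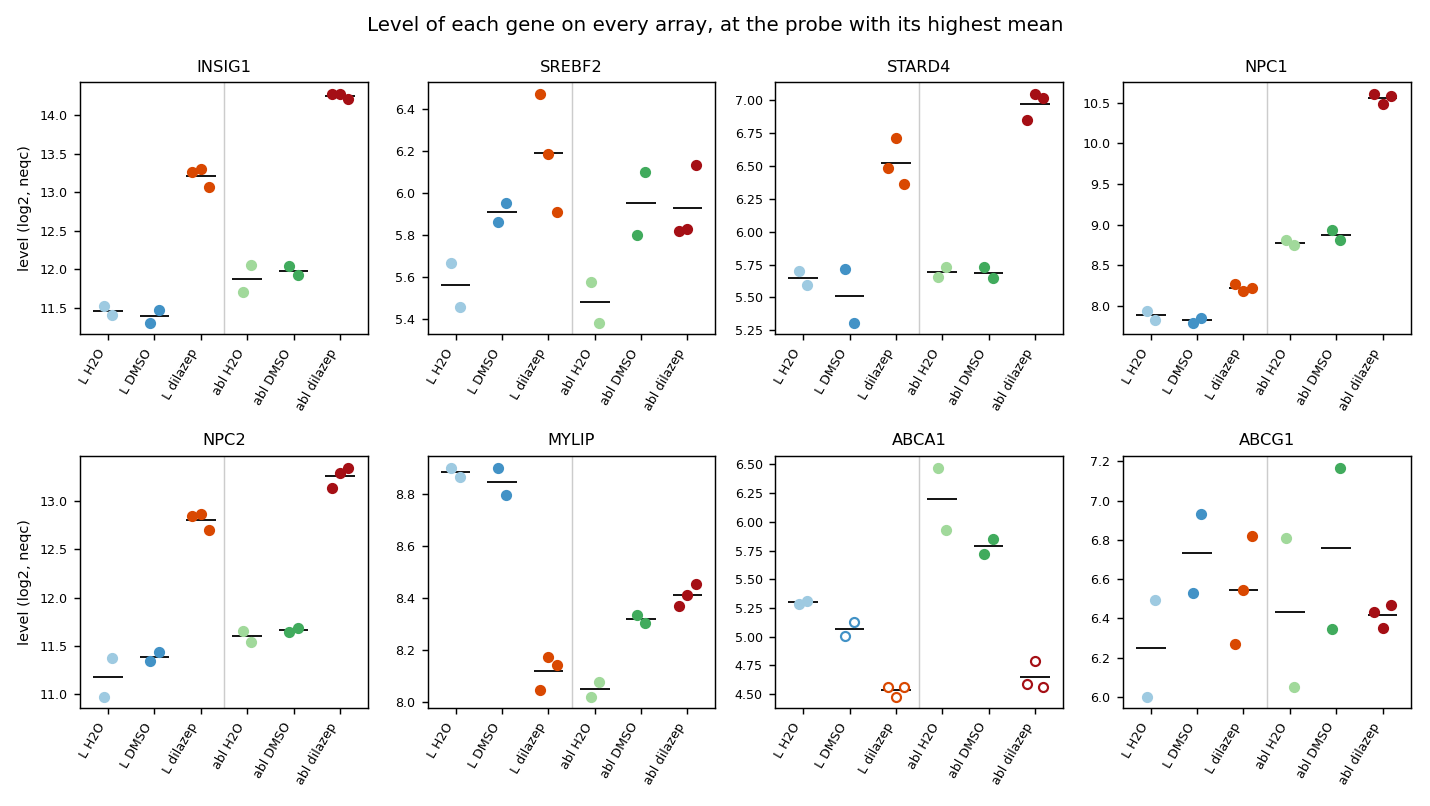
Level of each member gene on each of the 14 arrays (vertical axis, log2 scale after background correction and quantile normalization), at the probe with the gene's highest mean, by group, with a line at each group's mean. L stands for LNCaP and abl for LNCaP-abl, and open points are arrays where the probe was not detected. INSIG1, STARD4, NPC1 and NPC2 lie higher with dilazep than with either control in both lines, and no ABCA1 point with dilazep is filled.

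INSIG1, which retains SCAP and SREBP2 in the endoplasmic reticulum and is itself an SREBP target, rose at both of its probes in both lines. At the brighter probe, ILMN_1793474, LNCaP arrays read 11.52 and 11.40 with H2O, 11.30 and 11.47 with DMSO, and 13.27, 13.31 and 13.07 with dilazep (log2 levels). LNCaP-abl arrays read 11.70 and 12.05 with H2O, 12.04 and 11.92 with DMSO, and 14.28, 14.28 and 14.22 with dilazep. All dilazep arrays lay above all control arrays of either line, and those of LNCaP-abl lay above those of LNCaP. The change was 3.46-fold in LNCaP (log2 1.79, SE 0.11, adjusted p = 5.9e-07) and 5.03-fold in LNCaP-abl (log2 2.33, SE 0.11, adjusted p = 1.02e-08).

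The second INSIG1 probe, ILMN_1686989, showed the same order of control and dilazep arrays from a lower start. LNCaP controls lay between 5.64 and 6.33 and dilazep arrays between 8.32 and 8.78. In LNCaP-abl, controls lay between 7.08 and 7.44 and dilazep arrays between 9.64 and 9.98. This is a log2 change of 2.45 (SE 0.15, adjusted p = 4.07e-07) in LNCaP and 2.61 (SE 0.15, adjusted p = 4.04e-08) in LNCaP-abl. It was 1.02 and 1.62 with the authors' processed values, and 1.37 in LNCaP without background correction, and was called each time.

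SREBF2, the gene of the factor itself, moved little. LNCaP arrays read 5.67 and 5.45 with H2O, 5.86 and 5.95 with DMSO, and 6.48, 6.19 and 5.91 with dilazep. The lowest dilazep array lay below the highest DMSO array, so the groups overlapped. The change of 0.46 (SE 0.15, adjusted p = 0.0327) was called, and this call was kept in 15 of 24 alternatives. It was lost without background correction (0.16, adjusted p = 0.0873), with the authors' processed values (0.10, adjusted p = 0.0941), against DMSO alone (0.28, adjusted p = 0.291) and when LNCaP was fitted alone (adjusted p = 0.0582). It was also lost when H2O replicate 3, DMSO replicate 2, DMSO replicate 3, dilazep replicate 1 or dilazep replicate 2 was left out, the smallest of these being 0.31 (adjusted p = 0.146) without dilazep replicate 1. In LNCaP-abl, arrays read 5.58 and 5.38 with H2O, 5.80 and 6.10 with DMSO, and 5.82, 5.83 and 6.13 with dilazep. The groups overlapped there too, and the change of 0.21 (SE 0.15, adjusted p = 0.309) was not called.

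STARD4, a soluble carrier that moves sterols between membranes and whose gene is induced when sterols are low, rose in both lines. LNCaP arrays read 5.70 and 5.59 with H2O, 5.72 and 5.31 with DMSO, and 6.48, 6.72 and 6.36 with dilazep. LNCaP-abl arrays read 5.65 and 5.73 with H2O, 5.73 and 5.65 with DMSO, and 6.85, 7.05 and 7.02 with dilazep. No dilazep array overlapped a control array, and the control ranges of the lines overlapped each other. The rise was 1.92-fold in LNCaP (log2 0.94, SE 0.13, adjusted p = 1.47e-04) and 2.43-fold in LNCaP-abl (log2 1.28, SE 0.13, adjusted p = 5.41e-06). The probe is dim, and its change was smaller, though called, without background correction (0.34 and 0.51) and with the authors' processed values (0.21 and 0.33).

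NPC1 and NPC2 act in turn inside the lysosome: NPC2, a soluble protein, takes up cholesterol freed from lipoproteins and hands it to NPC1, a membrane protein that passes it out. Loss of either causes Niemann-Pick disease type C, in which cholesterol stays in lysosomes. NPC1 read 7.94 and 7.83 with H2O, 7.79 and 7.85 with DMSO, and 8.27, 8.19 and 8.22 with dilazep in LNCaP. In LNCaP-abl it read 8.80 and 8.75 with H2O, 8.94 and 8.81 with DMSO, and 10.61, 10.48 and 10.59 with dilazep. Dilazep and control arrays were apart in both lines, by a small step in LNCaP and a large one in LNCaP-abl. The rise was 1.29-fold in LNCaP (log2 0.37, SE 0.09, adjusted p = 0.00691) and 3.33-fold in LNCaP-abl (log2 1.73, SE 0.09, adjusted p = 1.96e-08). With the authors' processed values the change in LNCaP was 0.20, also called.

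NPC2 rose by about the same amount in both lines. LNCaP arrays read 10.97 and 11.38 with H2O, 11.34 and 11.43 with DMSO, and 12.84, 12.87 and 12.70 with dilazep. LNCaP-abl arrays read 11.65 and 11.54 with H2O, 11.65 and 11.69 with DMSO, and 13.14, 13.30 and 13.35 with dilazep. Every dilazep array lay above every control array of both lines. The rise was 2.87-fold in LNCaP (log2 1.52, SE 0.11, adjusted p = 2.08e-06) and 3.10-fold in LNCaP-abl (log2 1.63, SE 0.11, adjusted p = 2.81e-07).

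MYLIP, the LXR target also called IDOL, fell in LNCaP. LNCaP arrays read 8.90 and 8.87 with H2O, 8.90 and 8.80 with DMSO, and 8.05, 8.17 and 8.14 with dilazep. LNCaP-abl arrays read 8.02 and 8.08 with H2O, 8.34 and 8.31 with DMSO, and 8.37, 8.41 and 8.46 with dilazep. The dilazep arrays lay below all controls in LNCaP and just above all controls in LNCaP-abl, close to the DMSO arrays. The change was -0.74 in LNCaP (SE 0.09, adjusted p = 5.96e-05), which is 1.68-fold lower, or -0.47 with the authors' processed values. In LNCaP-abl it was 0.23 (SE 0.09, adjusted p = 0.0579), which was not called, though 5 of 24 alternatives called it, among them H2O alone as control (0.36, adjusted p = 0.0176).

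ABCA1, which loads cholesterol and phospholipid onto lipid-poor apolipoprotein A-I, was not detected on any dilazep array of either line. LNCaP arrays read 5.29 and 5.31 with H2O, where it was detected, 5.003 and 5.13 with DMSO, where it was not, and 4.56, 4.48 and 4.56 with dilazep. LNCaP-abl arrays read 6.47 and 5.93 with H2O, 5.72 and 5.85 with DMSO, and 4.59, 4.79 and 4.57 with dilazep, and all 4 controls were detected. In both lines the dilazep arrays lay below every control. For such a probe the dilazep level is only an upper bound, set at the lowest level among detected probes of each array. Against that bound ABCA1 was at least 1.56-fold lower in LNCaP-abl (control mean 5.99, measured dilazep mean 4.65). In LNCaP the control mean of 5.18 was itself below the bound of 5.32, so no fold is given (measured dilazep mean 4.54). The measured log2 differences in the limma fit were -0.65 in LNCaP (adjusted p = 0.00201) and -1.35 in LNCaP-abl (adjusted p = 4.17e-06). These p-values belong to the measured differences, and the bound was not tested. The differences shrank without background correction (-0.34 and -0.51) and with the authors' processed values (-0.19 and -0.30), where they were also called.

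ABCG1, which exports cholesterol to formed high-density lipoprotein particles, gave different answers at its probes. At ILMN_1794782, LNCaP arrays read 7.18 and 6.67 with H2O, 6.85 and 6.52 with DMSO, and 4.78, 5.37 and 4.88 with dilazep. LNCaP-abl arrays read 6.46 and 6.44 with H2O, 6.72 and 6.46 with DMSO, and 6.22, 5.77 and 6.16 with dilazep. Dilazep arrays lay below all controls in both lines, and only 1 of the 3 LNCaP dilazep arrays, replicate 2, detected the probe. The other 2 lay below the lowest level of any detected probe on the LNCaP dilazep arrays (5.30 to 5.35), so the size of the change in LNCaP rests partly on levels below detection. It was measured as -1.79 in LNCaP (SE 0.18, adjusted p = 2.06e-05), -0.66 without background correction and -0.41 with the authors' processed values, called each time. In LNCaP-abl it was -0.47 (SE 0.18, adjusted p = 0.0628), not called, and 3 of 23 alternatives called it (median centring at -0.62, LNCaP-abl fitted alone, and without LNCaP dilazep replicate 2).

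The ABCG1 probe with the highest mean, ILMN_1658176, was detected on all 14 arrays and showed no such step. LNCaP controls lay between 6.002 and 6.93 and dilazep arrays between 6.27 and 6.82. LNCaP-abl controls lay between 6.05 and 7.17 and dilazep arrays between 6.35 and 6.47. The groups overlapped in both lines, and the changes of 0.05 (SE 0.23, adjusted p = 0.897) and -0.18 (SE 0.23, adjusted p = 0.617) were not called. ILMN_2262362 stayed near background, between 4.68 and 5.60 over all arrays, with changes of -0.15 and -0.03 that were not called. ILMN_2329927, annotated to the same transcript record as ILMN_1794782, was detected on 1 LNCaP H2O array alone. Its levels were 5.40 and 5.11 with H2O, 5.06 and 4.84 with DMSO, and 4.50, 4.75 and 4.58 with dilazep in LNCaP, and between 4.68 and 4.92 in LNCaP-abl. It did not pass the detection filter, and without that filter its measured change was -0.49 in LNCaP (adjusted p = 0.00688) and 0.05 in LNCaP-abl (adjusted p = 0.866), or -0.14 (adjusted p = 0.0164) and 0.01 (adjusted p = 0.852) with the authors' processed values. With no dilazep array detected, these sizes rest on levels below detection.

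**Figure D2:**
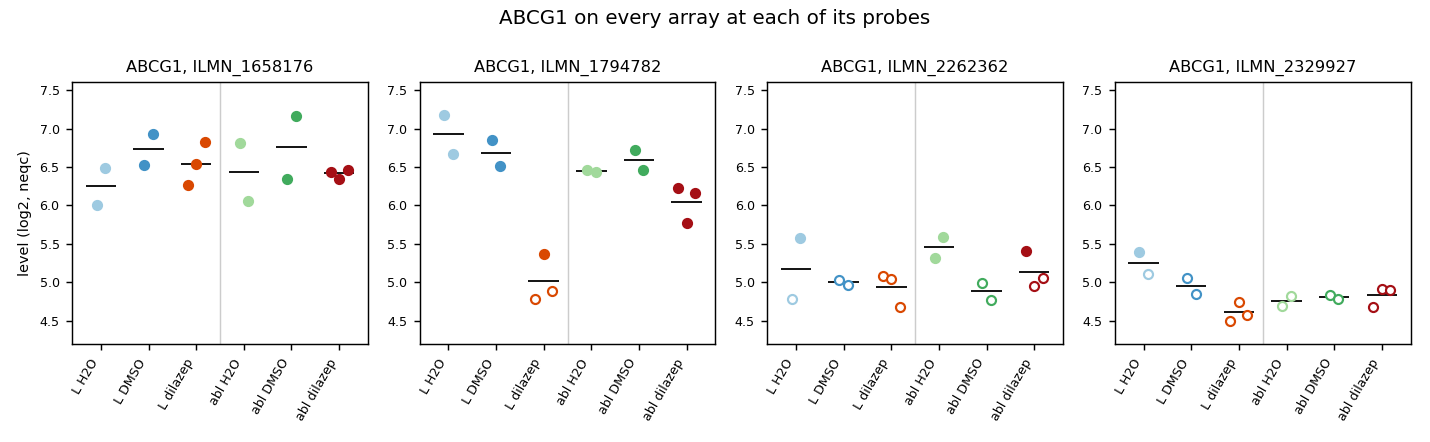
Level of the 4 ABCG1 probes on each of the 14 arrays (log2 scale), by group, with filled points where the probe was detected and a line at each group mean. ILMN_1794782 drops from between 6.52 and 7.18 in LNCaP controls to between 4.78 and 5.37 with dilazep, while ILMN_1658176 overlaps between the groups and the other probes lie near background.

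Whether the lines responded differently was tested as the response in LNCaP-abl minus that in LNCaP. Of the 11 member probes, 4 had a higher difference and 1 a lower one, where 22.6% of all kept probes were called, 11.3% in each direction. NPC1 rose more in LNCaP-abl, with a log2 difference of 1.36 (SE 0.13, adjusted p = 1.75e-05). MYLIP differed by 0.97 (SE 0.12, adjusted p = 1.92e-04), its fall in LNCaP having no counterpart called in LNCaP-abl. The difference for MYLIP was 0.60 with the authors' processed values, also called.

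ABCG1 at ILMN_1794782 had a measured difference of 1.32 (SE 0.26, adjusted p = 0.00322), with 2 of the 3 LNCaP dilazep arrays below detection, or 0.48 without background correction and 0.30 with the authors' processed values. ABCA1 had a measured difference of -0.70 (SE 0.18, adjusted p = 0.0152), which rests on dilazep levels below detection in both lines and does not show in which line it fell further. That call was lost without background correction (-0.18) and with the authors' processed values (-0.11), against DMSO alone (adjusted p = 0.0802) and when replicate number was added as a block (adjusted p = 0.0567). INSIG1 rose more in LNCaP-abl at ILMN_1793474, by 0.54 (SE 0.16, adjusted p = 0.0295). This call was kept in 13 of 23 alternatives and was 0.30 (adjusted p = 0.2) with median centring, 0.45 (adjusted p = 0.106) with replicate number as a block and 0.45 (adjusted p = 0.14) against DMSO alone. It was lost when any of 7 arrays was left out, namely LNCaP H2O replicate 1, DMSO replicate 3 and dilazep replicate 4, and LNCaP-abl H2O replicate 2, DMSO replicate 3 and dilazep replicates 1 and 2, at 0.45 to 0.53 (adjusted p from 0.0598 to 0.07). The other INSIG1 probe gave 0.16 (SE 0.21, adjusted p = 0.641), but 0.55 and 0.61, both called, without background correction and with the authors' processed values.

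No difference was called for SREBF2 (-0.24, SE 0.21), STARD4 (0.34, SE 0.18) or NPC2 (0.11, SE 0.16). With median centring 26% of all called differences were higher instead of 50.2%, and the median of all probes was -0.13, against 0.01 with quantile normalization.

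**Figure D3:**
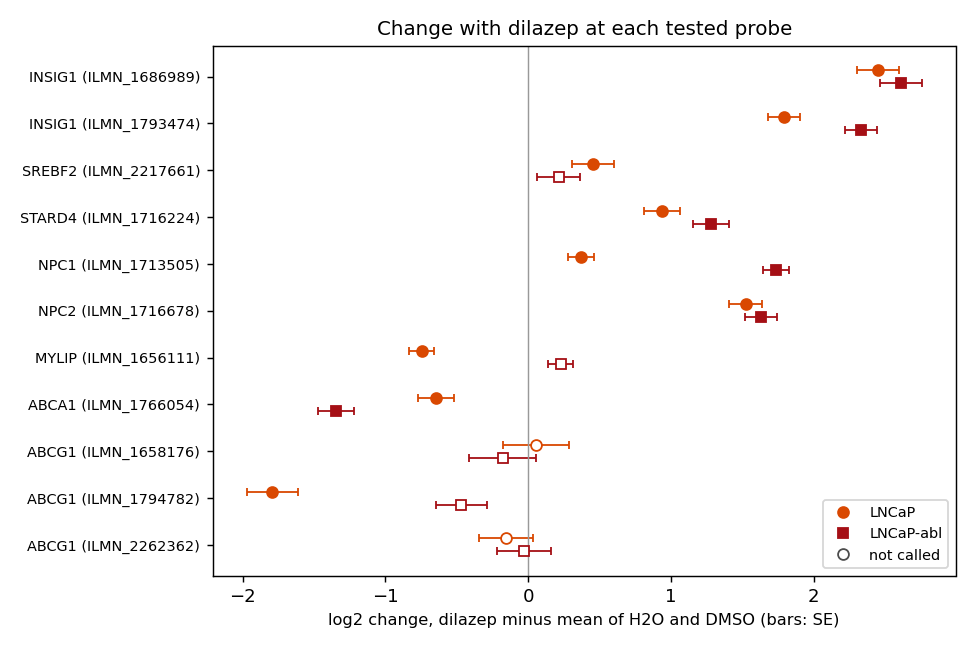
Log2 change with dilazep at each of the 11 tested member probes in LNCaP and LNCaP-abl, from 3 dilazep and 4 control arrays per line. Bars are 1 standard error of the limma fit, whose spread is estimated over all 14 arrays and shared by both lines. Open points mark changes that were not called. SREBP2-side and lysosomal probes lie at or above 0.21 in both lines, while ABCA1 and ABCG1 ILMN_1794782 lie below 0 in both and MYLIP lies at -0.74 in LNCaP and 0.23 in LNCaP-abl.

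Without dilazep, LNCaP-abl controls held higher levels than LNCaP of INSIG1, NPC1, NPC2 and ABCA1 and a lower level of MYLIP. That is 5 member probes higher and 1 lower of 11, where 36.0% of all kept probes were called, 18.3% higher and 17.7% lower. NPC1 was 0.97 higher (SE 0.08, adjusted p = 1.72e-06) and ABCA1 measured 0.81 higher (SE 0.12, adjusted p = 1.64e-04), though it was detected on 2 of the 4 LNCaP control arrays, against 4 of 4 in LNCaP-abl. INSIG1 was 0.50 higher at ILMN_1793474 (SE 0.10, adjusted p = 0.00221), a call lost against H2O alone (0.41, adjusted p = 0.0595), and 1.11 higher at ILMN_1686989 (SE 0.14, adjusted p = 4.07e-05). NPC2 was 0.35 higher (SE 0.11, adjusted p = 0.0201), which was kept in 17 of 23 alternatives. It was lost against either vehicle alone and without LNCaP H2O replicate 1 (0.25, adjusted p = 0.086), LNCaP DMSO replicate 2, LNCaP-abl H2O replicate 2 or LNCaP-abl DMSO replicate 3. MYLIP was 0.68 lower on the log2 scale (change -0.68, SE 0.08, adjusted p = 2.94e-05). The authors' processed values gave 0.33 for INSIG1 at ILMN_1686989, 0.58 for NPC1, -0.43 for MYLIP and 0.16 for ABCA1, all called, and INSIG1 at that probe and ABCA1 were 0.49 and 0.26 without background correction.

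Under dilazep, 7 of 11 member probes were higher in LNCaP-abl than in LNCaP and none was lower, where 41.5% of all kept probes were called, 20.6% higher and 20.9% lower. At an unadjusted p under 0.05 none of the 11 was lower either in the limma fit. NPC1 was 2.34 higher (SE 0.10, adjusted p = 2.18e-09), and INSIG1 1.04 and 1.27 higher at its probes. NPC2 was 0.46 higher (adjusted p = 0.00895), STARD4 0.45 (adjusted p = 0.0162) and MYLIP 0.29 (adjusted p = 0.0231), and these 3 calls were lost with median centring, at 0.17, 0.23 and 0.04, and when replicate number was added as a block. The STARD4 call was also lost without LNCaP dilazep replicate 4 or LNCaP-abl dilazep replicate 2, and that of MYLIP without LNCaP dilazep replicate 1 or LNCaP-abl dilazep replicate 2 or 3. STARD4 was 0.21 without background correction and 0.14 with the authors' processed values, and MYLIP 0.17 with the latter, all called. ABCG1 at ILMN_1794782 measured 1.04 higher (SE 0.19, adjusted p = 8.95e-04), against LNCaP arrays of which 2 of 3 were below detection, or 0.35 without background correction and 0.21 with the authors' processed values. ABCA1, below detection in both, differed by 0.11 (adjusted p = 0.552) and was not called, and SREBF2, at -0.26 (adjusted p = 0.211), was called with median centring alone (-0.43, adjusted p = 0.0424).

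The order of the 6 groups followed from these steps. INSIG1, STARD4 and NPC2 were highest in LNCaP-abl with dilazep, then in LNCaP with dilazep, and lower in the controls. For INSIG1 at ILMN_1793474, LNCaP with dilazep exceeded the next group, LNCaP-abl with DMSO, by 1.24 (adjusted p = 1.73e-05), while neighbouring control groups of 1 line overlapped. NPC1 was ordered by line first, with LNCaP under dilazep 0.56 below LNCaP-abl with H2O (adjusted p = 0.00138). MYLIP was highest in LNCaP with H2O and DMSO, which overlapped, and LNCaP with dilazep overlapped LNCaP-abl with H2O at the low end. For SREBF2 and for ABCG1 at ILMN_1658176, no neighbouring groups in the order differed at an adjusted p under 0.05.

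Of the 24894 kept probes, 0 were called between DMSO and H2O over both lines in the limma fit, the 11 member probes included. An unadjusted p under 0.05 was found at 1117 kept probes. Among the members these were SREBF2, at 0.41 (unadjusted p = 0.0109), and ABCA1, at -0.32 (unadjusted p = 0.0182). The SREBF2 value is near its change of 0.46 with dilazep in LNCaP.

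Further genes of the pathway were read from lists by role, each gene at its kept probe with the highest mean. Over all 11983 genes so measured, 21.8% were higher and 17.8% lower in LNCaP, with a median change of 0.04, and 25% were higher and 21.5% lower in LNCaP-abl, with a median of 0.04. Of 18 other SREBP2 target genes measured of 23 listed, 16 were higher and 0 lower in LNCaP (median 1.38), and 15 were higher and 1 lower in LNCaP-abl (median 1.79). HMGCS1, an early enzyme of the mevalonate pathway, rose by 3.34 and 3.21 in the 2 lines, LSS, which closes the sterol ring, by 2.26 and 2.59, and SC5D, a late desaturase, by 1.69 and 3.27. Further LSS probes gave 1.12 and 0.87 in LNCaP and 1.76 and 2.05 in LNCaP-abl, all called. FDPS, which makes farnesyl diphosphate, rose by 2.15 and 1.99, the sterol reductase gene TM7SF2 by 1.77 and 2.49, and IDI1, the isomerase of isopentenyl diphosphate, by 1.51 and 2.43. The 1 that fell was TMEM97, which encodes the sigma-2 receptor and binds NPC1, at -0.13 (adjusted p = 0.366) and -1.43 (adjusted p = 3.4e-07), but another TMEM97 probe gave 0.21 and 0.70, the second called.

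Genes that hold and release SREBP moved by smaller amounts. Of 10 measured of 12 listed, 3 were higher and 2 lower in LNCaP (median 0.14), and 5 were higher and 2 lower in LNCaP-abl (median 0.17). SPRING1, a cofactor of SREBP cleavage, rose by 0.60 and 1.29 and INSIG2, the paralogue of INSIG1, by 0.39 and 0.79. SCAP was at 0.15 (adjusted p = 0.308) in LNCaP and rose by 0.54 in LNCaP-abl. RNF145, a ubiquitin ligase that acts on SCAP, fell in both lines (-1.005 and -0.57), and PAQR3, a Golgi anchor of SCAP, fell in LNCaP (-0.44) and rose in LNCaP-abl (0.34). SREBF1, which encodes SREBP1 and is also an LXR target, was at 0.14 (adjusted p = 0.284) and 0.00 (adjusted p = 0.992).

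Of 4 lipoprotein uptake genes measured of 10 listed, 3 were higher and 0 lower in LNCaP (median 0.42), and 2 were higher and 1 lower in LNCaP-abl (median 0.16). LRPAP1, a chaperone of this receptor family, rose by 0.46 and 0.37. The VLDL receptor gene VLDLR was at 0.18 (adjusted p = 0.446) in LNCaP and rose by 1.08 in LNCaP-abl. LRP8, a related receptor, rose by 0.47 in LNCaP and fell in LNCaP-abl (-0.87), a difference of -1.34 (SE 0.15, adjusted p = 6.54e-05), and its second probe gave 0.26, not called, and -1.11, called. The scavenger receptor gene SCARB1 rose by 0.38 in LNCaP and was at -0.06 (adjusted p = 0.742) in LNCaP-abl. The LDL receptor gene was not analysed here.

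The next list held LXR, its RXR partners, TTC39B and other LXR targets, with 9 genes measured of 15. Of these, 3 were higher and 2 lower in LNCaP (median 0.18), and 4 were higher and 1 lower in LNCaP-abl (median 0.06). NR1H3, which encodes LXR alpha, was at 0.03 (adjusted p = 0.934) in LNCaP and fell in LNCaP-abl (-0.73, adjusted p = 0.00419). Members of the list moved in opposite directions. SMPDL3A, a phosphodiesterase, fell in LNCaP (-1.20) and rose in LNCaP-abl (1.13), and its second probe gave -0.98 and 0.76, both called. TTC39B, which promotes degradation of LXR, fell in LNCaP (-0.57) and rose in LNCaP-abl (0.72). LPCAT3, which builds polyunsaturated phospholipids, rose by 0.34 and 0.89. The RXR genes gave 0.42 (called) and 0.06 for RXRA and 0.20 and 0.62 (called) for RXRB. The apolipoprotein gene APOC1 rose by 1.09 in LNCaP, from controls detected on 1 of 4 arrays, and was detected on no LNCaP-abl dilazep array.

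Of 18 measured of 22 genes for lysosomal and intracellular sterol transport and esterification, 6 were higher and 3 lower in LNCaP (median 0.09), and 6 were higher and 2 lower in LNCaP-abl (median 0.20). The sterol-binding protein gene OSBPL2 rose by 0.83 and 0.82 and OSBPL1A by 1.00 and 1.46, with an SD of 0.87 among the LNCaP dilazep arrays for OSBPL1A. Of its further probes, ILMN_1773063 gave 1.24 and 1.40, both called, and ILMN_1697952 gave -0.02 and 0.11, not called. OSBPL5 fell in both lines (-0.42 and -0.74), and its second probe gave -0.24, not called, and -0.49, called. OSBPL8 was at 0.04 (adjusted p = 0.797) in LNCaP and fell in LNCaP-abl (-0.59). Of the lysosomal membrane genes, LAMP1 rose by 0.51 and 0.44 and LAMP2 by 0.66 and 0.41, with other LAMP2 probes between 0.17 and 1.42 in LNCaP and between 0.53 and 2.17 in LNCaP-abl. SCARB2, another lysosomal membrane gene, was at -0.17 (adjusted p = 0.194) and 0.15 (adjusted p = 0.254), not called. SOAT1, which esterifies cholesterol for storage, fell in LNCaP (-0.63) and rose in LNCaP-abl (0.51), a difference of 1.14 (SE 0.15, adjusted p = 2.73e-04).

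**Figure D4:**
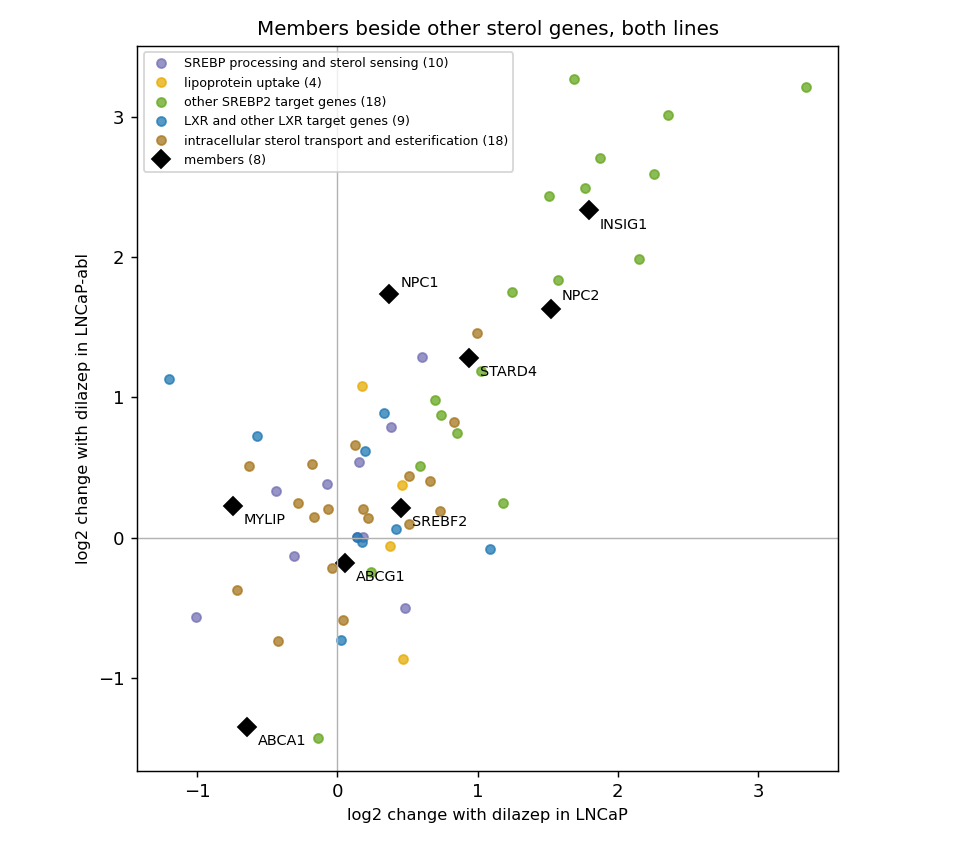
Log2 change with dilazep in LNCaP (horizontal) against LNCaP-abl (vertical) for each measured gene of the pathway lists and for the member genes, each at the probe with its highest mean. The other SREBP2 target genes, with medians of 1.38 and 1.79, lie mostly to the upper right. The other lists have medians between 0.06 and 0.42, but single genes lie far from 0, such as SMPDL3A at -1.20 in LNCaP and 1.13 in LNCaP-abl.

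Likeness of pattern was measured as the root mean square difference of the 6 group means, each gene centred on its own mean, so it rests on 6 points drawn from the same arrays. The nearest genes to INSIG1 were OPTN (0.13 on the log2 scale), DEFB126 and PLXNA3. NPC1 was nearest to GPNMB (0.11), RNF103 and TIPARP, and NPC2 to MANBA (0.07), IGFBP3 and LIN7A. For STARD4 they were TERF1 (0.07), ATG4A and TMEM178A, and for SREBF2 SLC9A8 (0.07), GYS1 and VENTXP1. MYLIP was nearest to RBM4 (0.07), RCN2 and RIDA, with RBM4 at -0.84 in LNCaP and 0.19 in LNCaP-abl. ABCA1 was nearest to SCARA3 (0.09), ERVMER34-1 and SLC22A10. For ABCG1, at ILMN_1658176, they were CIMAP3 (0.04), FAHD2CP and NOS2, whose changes were also small.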

How the data were processed

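For every probe, the authors deposited a linear intensity on each array and, per the file headers, a detection p-value. They also deposited processed log2 values, made with lumi per the submitters' processing notes (version not given) and used as an alternative only. Probes were named from the platform annotation: of 22912 processed probes, 16501 had 1 symbol, 5 several and 6406 none here. Intensities were background corrected, quantile normalized and log2 transformed with neqc (limma 3.58.1, R 4.3.3, offset 16). Probes with a detection p-value under 0.05 on at least 2 arrays were kept. All 14 arrays entered 1 linear model of the 6 group means (lmFit, eBayes, two-sided), with Benjamini-Hochberg adjustment over all 24894 kept probes, and checked on simulated data. H2O and DMSO controls were weighted equally, since the labels do not give the vehicle of dilazep. List genes were read at their highest-mean probe from the same fit. All members were named and, of each list, the 4 genes with the smallest p per line among those called, plus SREBF1 and NR1H3. TMEM97 was chosen after its values were seen, and SCARB2, called in neither line, was also named outside this rule. Members and lists were chosen with earlier results of these data known. Replicate numbers were not used to pair samples in the main model. Of 8 same-numbered pairs, 0 had a correlation of deviations over 0.1 (range -0.17 to 0.05). With 2 or 3 arrays per group, this cannot settle whether same-numbered arrays belonged together. Alternatives changed the background correction, normalization, filter, control, arrays in the fit and probe choice. The number of arrays limits precision.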

Additional observations from a re-analysis of the deposited data

Results flagged for a closer look

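The response to dilazep differed between LNCaP-abl and LNCaP at 5 member probes by the test of the difference itself in the limma fit, where 22.6% of all kept probes were called. The difference, LNCaP-abl minus LNCaP on the log2 scale, was 1.36 for NPC1, 0.97 for MYLIP, 1.32 for ABCG1 at ILMN_1794782, 0.54 for INSIG1 at ILMN_1793474 and -0.70 for ABCA1. NPC1 and INSIG1 rose in both lines, MYLIP fell in LNCaP and was not called in LNCaP-abl, and ABCA1 was below detection with dilazep in both. ABCG1 at ILMN_1794782 was detected on 1 of the 3 LNCaP dilazep arrays, so its difference and that of ABCA1 rest on levels below detection. The INSIG1 call was kept in 13 of 23 alternatives and the ABCA1 call was lost in 4 of 23.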

How the results depend on the processing

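The 6 calls with dilazep in LNCaP-abl and 8 of the 9 in LNCaP were kept under every alternative run for them, SREBF2 being the exception. With single arrays left out, the count of member probes called ran from 8 to 9 in LNCaP (9 with all arrays), from 6 to 7 in LNCaP-abl (6), from 4 to 5 for the difference between the responses (5), from 5 to 6 between the controls (6) and from 5 to 7 under dilazep (7). The replicate number as a block lowered the count for the difference from 5 to 3 and that under dilazep from 7 to 4, with 6004, 8954 and 4343 of all probes called in LNCaP, in LNCaP-abl and for the difference (7969, 8938 and 5619 without it). DMSO alone as control also gave 3 for the difference, with 3531 of all probes, and 5682 of all probes between the controls (8970 with both vehicles). With 1 probe per gene, 11983 genes were tested. Of these, 5261 (43.9%) were called in LNCaP, 5871 (49%) between the controls and 6540 (54.6%) under dilazep. The shares over all kept probes were 32.0%, 36.0% and 41.5%.

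Signs turned at values near 0 that were not called. With DMSO alone, ABCG1 ILMN_1658176 in LNCaP came to -0.19, SREBF2 in LNCaP-abl to -0.024 and between the controls to 0.043, the INSIG1 ILMN_1686989 difference to -0.17, and ABCG1 ILMN_2262362 to 0.26 in LNCaP-abl and -0.12 between the controls. With median centring, the differences of INSIG1 ILMN_1686989 and NPC2 came to -0.069 and -0.21, and list medians in LNCaP-abl to -0.02 (SREBP processing), -0.031 (lipoprotein uptake) and -0.057 (LXR). ABCG1 ILMN_2262362 came to 0.031 in LNCaP and -0.042 for the difference with the block, and to -0.076 for the difference with H2O alone. With single arrays left out, ABCG1 ILMN_1658176 ran from -0.084 to 0.19 in LNCaP, from -0.38 to 0.028 in LNCaP-abl, from -0.10 to 0.31 between the controls and from -0.26 to 0.01 under dilazep. ABCG1 ILMN_2262362 ran from -0.35 to 0.047 in LNCaP, from -0.17 to 0.062 in LNCaP-abl, from -0.077 to 0.32 for the difference and from -0.12 to 0.28 between the controls. SREBF2 between the controls ran from -0.10 to 0.055.

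Among the lists, genes called for SREBP processing in LNCaP were 8 with the authors' processed values and 3 with the block or H2O alone (5 otherwise), those of the LXR list in LNCaP 3 with the block (5), and those of intracellular transport in LNCaP-abl 5 with median centring (8). The LXR list's median in LNCaP-abl ran from 0.01 without LNCaP-abl dilazep replicate 1 to 0.17 without LNCaP-abl H2O replicate 2, and was 0.34 with the stricter detection filter. The cause of these moves was not tested. SREBF2, STARD4, ABCA1, INSIG1 at ILMN_1686989 and 3 ABCG1 probes lay close to the detection limit on at least some arrays, which limits their folds.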
